A study of Homo sapiens with 12 samples.

Results

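The 7 genes for short structured noncoding RNAs, RN7SK, RMRP, RPPH1, SNORD3A, SCARNA2, MIR3648-1 and MIR3648-2, were measured in AU565 cells, an established human breast carcinoma line with amplified ERBB2. They were the 7 rows whose symbol was on a fixed list, out of 16020 rows of the gene count table, and all 7 passed the filter on low counts. Passing did not require reads in monolayer. RMRP and the MIR3648 genes had fewer than 10 reads in every monolayer library and passed through formats in which they were higher. The list was drawn up with the values of these genes in view, so their levels and fold changes are given as a description with no test. The RefSeq biotypes fit the label for 6 of them (small nuclear RNA, RNase MRP RNA, RNase P RNA, small nucleolar RNA and, for the MIR3648 genes, microRNA), and SCARNA2 is entered there as a noncoding RNA without a class. The cells are marked WT in the labels and were sequenced as 4 culture formats with 3 libraries each, 12 in all, namely monolayer, small spheroid, large spheroid and capsule. All formats share 1 treatment label, liquid overlay culture with 5% matrigel that followed trastuzumab, an antibody to the receptor encoded by ERBB2, and 96 h of incubation, so no format serves as an untreated control here. Nothing in the labels says that the replicates were separate cultures, so the p-values below rest on library-to-library spread that may be technical. The titles of the monolayer and large spheroid libraries carry the letters UP and those of the small spheroid and capsule libraries do not, and the labels do not say what the letters mean.

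RN7SK encodes 7SK RNA, the scaffold of a nuclear particle in which HEXIM proteins hold the elongation kinase P-TEFb (CDK9 with a cyclin T) inactive, while LARP7 and MEPCE bind and protect the RNA. RMRP and RPPH1 are the RNA components of RNase MRP, which cuts precursor ribosomal RNA, and of RNase P, which removes the leader from precursor tRNA, and both share most of their protein subunits. These RNAs are made by RNA polymerase III from promoters that lie upstream of the gene and bind SNAPc and TBP. SNORD3A is a copy of U3, the box C/D small nucleolar RNA that guides early cleavage of precursor ribosomal RNA, and SCARNA2 is a small RNA of the Cajal body, where such RNAs direct modification of spliceosomal RNAs. The MIR3648-1 hairpin lies inside RNA45SN2, a ribosomal RNA gene that RNA polymerase I reads. The RefSeq positions used here place MIR3648-2, whose hairpin has the same sequence, inside no larger gene. None of the 7 mature RNAs is known for a poly(A) tail. Whether the kit selected RNA by such a tail was not given in the sources used here.

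Sequences are printed below because the results turn on short, unspliced RNAs, on near-identical copies among them and on a pair of related particles. Sequences are those of GENCODE release 29 on GRCh38, written as DNA, and gene positions are from RefSeq on GRCh38.p14. RN7SK (chr6:52995620-52995951, plus strand) is 332 bases in RefSeq and 328 bases in GENCODE, and its bases 1 to 300 are shown. RMRP (chr9:35657750-35658019, minus strand, 270 bases, printed at its GENCODE length of 268) and RPPH1 (chr14:20343071-20343411, minus strand, 341 bases, of which 1 to 300 of the GENCODE transcript are shown) are 52.9% identical. Their longest shared word has 9 bases and is in capitals, at position 243 of RMRP and 146 of RPPH1, counted from the RNA's first base. Of 22414 GENCODE transcripts of 150 to 450 bases, 0.0892% hold this word. The word was picked as the longest shared one, so this share does not tell how unusual the match is. Unrelated pairs were not compared, so neither the word nor the identity is set against a background.
RN7SK: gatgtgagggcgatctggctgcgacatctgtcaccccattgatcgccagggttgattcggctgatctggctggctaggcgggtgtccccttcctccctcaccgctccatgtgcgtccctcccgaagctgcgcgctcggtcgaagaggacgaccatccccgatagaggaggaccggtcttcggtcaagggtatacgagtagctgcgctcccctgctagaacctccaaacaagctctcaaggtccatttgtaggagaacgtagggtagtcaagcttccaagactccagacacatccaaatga
RMRP: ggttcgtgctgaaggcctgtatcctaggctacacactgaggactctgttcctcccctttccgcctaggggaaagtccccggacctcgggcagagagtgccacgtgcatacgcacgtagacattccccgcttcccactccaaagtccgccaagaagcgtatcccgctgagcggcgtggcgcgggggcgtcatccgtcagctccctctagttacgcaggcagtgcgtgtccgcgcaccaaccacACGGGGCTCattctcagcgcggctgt
RPPH1: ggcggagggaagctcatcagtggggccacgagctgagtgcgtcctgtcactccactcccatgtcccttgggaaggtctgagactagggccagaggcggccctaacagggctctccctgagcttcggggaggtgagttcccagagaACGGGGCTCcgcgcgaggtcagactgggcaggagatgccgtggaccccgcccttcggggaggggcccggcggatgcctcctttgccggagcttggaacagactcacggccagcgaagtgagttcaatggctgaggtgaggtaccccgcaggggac

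SNORD3A (chr17:19188016-19188232, plus strand, 217 bases) is shown with the letters TGATGA, the core of the box C consensus, and CTGA, those of box D, in capitals. They were searched on the RNA strand and did not overlap each other. TGATGA stood at position 158, and CTGA at positions 53, 104 and 209. Of transcripts of this length class, 15.5% hold TGATGA and 86.5% hold CTGA, so the matches are a description of the letters. The hairpins of MIR3648-1 and MIR3648-2, of 180 bases each, are 100% identical. SCARNA2 (chr1:109100193-109100612, plus strand) is the longest of the members at 420 bases.
SNORD3A: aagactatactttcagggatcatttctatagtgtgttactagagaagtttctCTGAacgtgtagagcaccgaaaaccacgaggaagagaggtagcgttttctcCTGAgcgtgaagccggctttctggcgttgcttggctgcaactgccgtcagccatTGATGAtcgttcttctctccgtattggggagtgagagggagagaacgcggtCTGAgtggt

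Library totals ran from 13971346 to 24729250 counts. Levels are CPM, read counts relative to library sizes scaled by TMM, and 1 count was worth 0.0385 to 0.0765 CPM. Summed markers of AU565 cells (ERBB2, GRB7, KRT8, KRT18, KRT19 and EPCAM) stood at 12000 to 20800 CPM in every format. Summed melanocyte markers, of which 3 of 4 were in the table, ran from 44.7 to 99.1 CPM in monolayer, 14.7 to 18.8 CPM in large spheroids and at most 3.9 CPM elsewhere. Summed cardiac markers (4 of 4) ran from 1.06 to 175 CPM in monolayer and from 3.85 to 59 CPM in large spheroids, and stood at 5.81 CPM or less in the other formats. MYH6 stood at 68.6, 66.3 and 0 CPM in monolayer replicates 1, 2 and 3 and at 17.1, 17.4 and 0 CPM in those of large spheroids, so this signal was shared by replicates 1 and 2 of both formats. Mesenchymal markers (4 of 4) summed to 20 to 46.3 CPM, a sum of genes that went opposite ways. POSTN stood at 10.7 to 28.6 CPM in monolayer, 12.8 to 21.8 in large spheroids and 0 to 0.0632 in small spheroids and capsules, and COL1A1 at 8.08 to 8.73 CPM in monolayer and 23.9 to 26.1 in small spheroids. The leukocyte marker PTPRC was not in the table. Melanocyte markers and POSTN were highest in the formats in which most members were lowest, and the part of such cells in the members' differences was not tested. In bulk RNA, fewer cells of a type and less RNA per cell cannot be told apart.

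RN7SK led the members in capsules, also per kilobase of gene, with 51.3, 51.1 and 121 CPM in replicates 1, 2 and 3. In small spheroids it stood at 5.13, 5 and 52.3 CPM. In large spheroids it stood at 4, 1.5 and 1.84 CPM, and in monolayer at 0.663, 0.731 and 0.138 CPM. Replicate 3 of the small spheroids therefore lay inside the range of the capsule libraries, while the other small spheroid libraries lay between the monolayer and the capsules. The order was capsule, small spheroid, large spheroid, monolayer, and of its neighbours capsule and small spheroid overlapped. Against monolayer the log2 fold change was 5.30 ± 0.96 (SE from the fit, n = 3 libraries per format) in small spheroids, 2.21 ± 1.26 in large spheroids and 7.16 ± 0.90 in capsules. The first of these came to 3.29 when replicate 3 of small spheroids and of capsules were left out together, and the capsule value to 6.62.

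**Figure D1:**
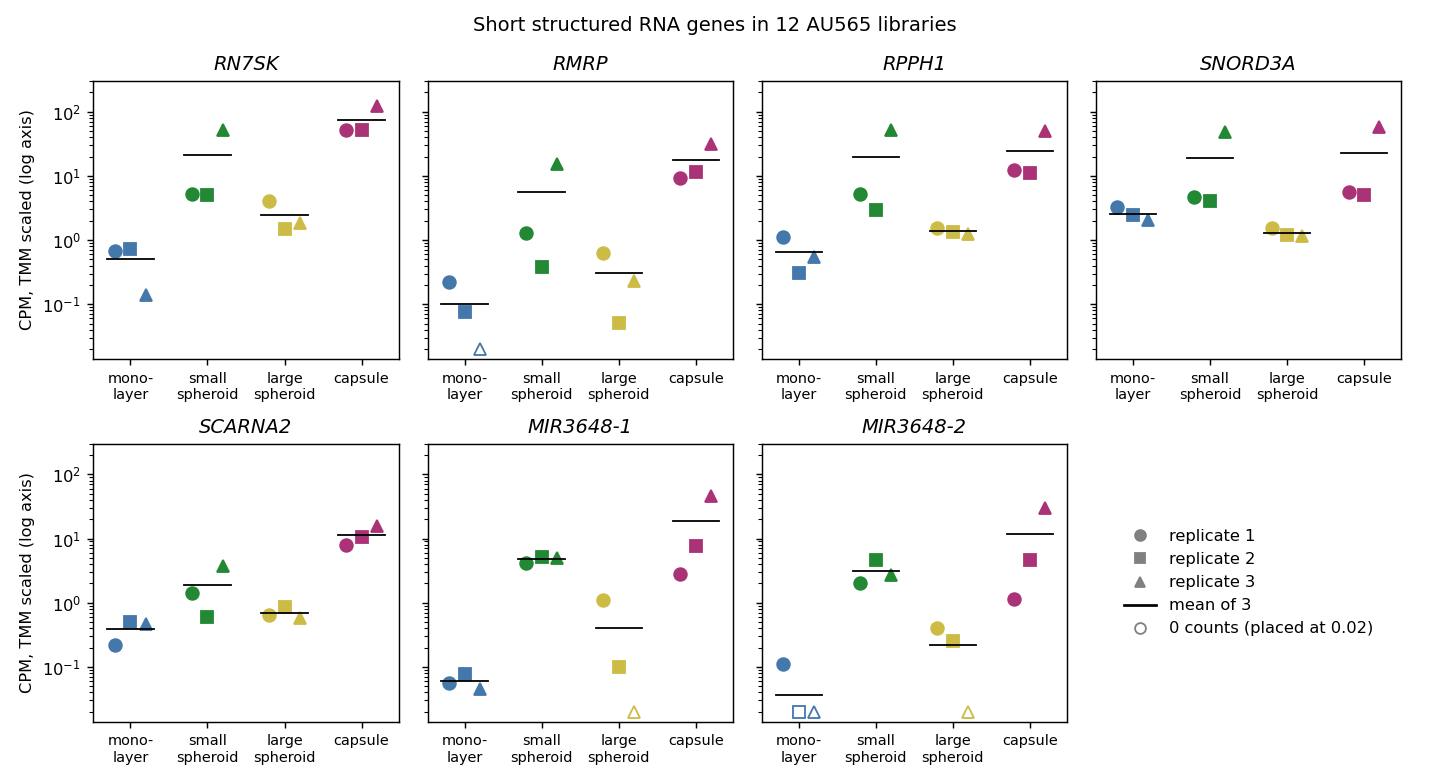
CPM of each member in each library (log axis, TMM scaled), with symbols for replicates 1, 2 and 3, a line at the mean of 3 and open symbols, placed at 0.02, for libraries with 0 counts. All 7 members lie higher in the 3 capsule libraries than in the 3 monolayer libraries, and in small spheroids RN7SK, RMRP, RPPH1 and SNORD3A have replicate 3 at 15.3 to 52.3 CPM and the other replicates at 0.379 to 5.13 CPM.

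RMRP had the same order of formats as RN7SK. It stood at 9.42, 11.6 and 31.7 CPM in capsules and at 1.27, 0.379 and 15.3 CPM in small spheroids. In large spheroids it stood at 0.637, 0.0501 and 0.23 CPM. In monolayer it stood at 0.221 and 0.077 CPM, and replicate 3 had 0 counts, which allows up to 0.138 CPM. The 3 monolayer libraries held 6 RMRP reads in all, so the fold of this gene is known within wide limits, and each format overlapped its neighbour in the order capsule, small spheroid, large spheroid, monolayer. The log2 fold change against monolayer was 5.82 ± 1.34 in small spheroids, 1.61 ± 2.29 in large spheroids and 7.47 ± 1.18 in capsules. Without the third replicates of small spheroids and capsules the small spheroid value was 3.11, and without capsule replicate 3 the capsule value was 6.73. Without monolayer replicate 1 the 3 values were 6.82, 2.62 and 8.48, and without large spheroid replicate 1 the large spheroid value was 0.53. As a ratio of summed counts per library size, capsules held 189 times the monolayer level, with a 95% interval (Clopper-Pearson, counting error only) of 86.5 to 517. Without capsule replicate 3 this ratio was 115 (52.1 to 315). In capsules, RN7SK had 3.82 to 5.45 reads for each read of RMRP, and in small spheroids 3.42 to 13.2.

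RPPH1, the partner of RMRP in protein usage, stood at 12.3, 10.9 and 49.8 CPM in capsules and at 5.13, 2.95 and 51.4 CPM in small spheroids. In large spheroids it stood at 1.56, 1.35 and 1.26 CPM and in monolayer at 1.11, 0.308 and 0.551 CPM. The third replicates of capsules and small spheroids were thus nearly level, and the formats overlapped. RPPH1 had the closest large spheroid libraries of the members, the highest being 1.24 times the lowest. Its log2 fold change against monolayer was 4.98 ± 1.02 in small spheroids, 1.17 ± 1.40 in large spheroids and 5.28 ± 1.01 in capsules. Without the third replicates it came to 2.71 in small spheroids and 4.21 in capsules. RMRP and RPPH1 did not keep a constant ratio, since RPPH1 had 3.36 to 7.8 reads per RMRP read in small spheroids and 0.946 to 1.57 in capsules.

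SNORD3A stood above the other members in monolayer. Without the third replicates it also kept the smallest differences from monolayer of the members, in small spheroids and in capsules. It stood at 3.26, 2.42 and 2.07 CPM in monolayer, the highest member there also per kilobase, and at 1.56, 1.2 and 1.15 CPM in large spheroids, below every monolayer library. In small spheroids it stood at 4.6, 4.09 and 48.4 CPM and in capsules at 5.56, 5.02 and 57.4 CPM. Replicates 1 and 2 of small spheroids and capsules were within a narrow band just above monolayer, and replicate 3 of each was far above. The log2 fold change against monolayer was 2.88 ± 0.94 in small spheroids and 3.14 ± 0.93 in capsules, and came to 0.77 and 1.05 without the third replicates, and to 2.12 and 2.36 with the replicate number as a block. In large spheroids it was -0.97 ± 1.25. For each RN7SK read, SNORD3A had 3.32 to 15 reads in monolayer, 0.818 to 0.925 in small spheroids, 0.391 to 0.8 in large spheroids and 0.0983 to 0.472 in capsules. The small spheroid ratio was nearly the same in all 3 libraries, although replicate 3 held 11.1 times the SNORD3A and 10.3 times the RN7SK of the others. Reads of U3 copies are uncertain, since SNORD3A is 98.6% to 99.5% identical to the 4 other U3 rows of the table. How reads that match several places were handled was not given in the sources used here.

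SCARNA2 was the member whose capsule libraries lay closest together and clear of every other format. It stood at 8.03, 10.5 and 15.6 CPM in capsules and at 1.4, 0.606 and 3.75 CPM in small spheroids. In large spheroids it stood at 0.637, 0.852 and 0.575 CPM and in monolayer at 0.221, 0.5 and 0.459 CPM. Large and small spheroids overlapped, while large spheroids lay just above monolayer. The log2 fold change against monolayer was 2.20 ± 0.54 in small spheroids, 0.76 ± 0.62 in large spheroids and 4.77 ± 0.45 in capsules, and capsules exceeded small spheroids by 2.57 ± 0.38, or by 3.45 without small spheroid replicate 3. Without the third replicates the first and the third of the monolayer values were 1.32 and 4.48.

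The MIR3648 genes had almost no reads in monolayer. MIR3648-1 had 4 reads over the 3 monolayer libraries (0.0553, 0.077 and 0.0459 CPM) and MIR3648-2 had 2, with 0.111 CPM in replicate 1 and 0 counts in replicates 2 and 3, which allow up to 0.115 and 0.138 CPM. In small spheroids MIR3648-1 stood at 4.2, 5.22 and 4.97 CPM and MIR3648-2 at 2, 4.69 and 2.68 CPM. Here replicate 3 was not apart, unlike for the other members. In capsules MIR3648-1 stood at 2.84, 7.56 and 45.9 CPM and MIR3648-2 at 1.14, 4.61 and 29.9 CPM, so the highest library held 16.1 and 26.3 times the lowest. In large spheroids MIR3648-1 stood at 1.1, 0.1 and 0 CPM and MIR3648-2 at 0.406, 0.251 and 0 CPM. A count of 0 in large spheroid replicate 3 allows up to 0.172 CPM. The large spheroid libraries overlapped monolayer for both copies.

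The ratio of summed counts per library size, small spheroids over monolayer, was 78.6 for MIR3648-1 (95% Clopper-Pearson interval 30.2 to 291) and 101 for MIR3648-2 (27.5 to 846). For capsules over monolayer the ratios were 298 (116 to 1100) and 377 (104 to 3120). The fitted log2 fold change of MIR3648-1 was 6.14 ± 1.40 in small spheroids and 8.10 ± 1.19 in capsules (SE from the fit, n = 3 libraries per format), and that of MIR3648-2 was 6.36 ± 1.60 and 8.29 ± 1.34. Without capsule replicate 3 the capsule values were 6.26 and 6.24 and the ratios of summed counts 84.1 (32.2 to 312) and 92.2 (24.7 to 774), near those of small spheroids. Monolayer replicate 1 held both monolayer reads of MIR3648-2. Without it the fit, whose value then depends on the prior count, gave 8.73 and 10.7 for this copy, and without monolayer replicate 2 it gave 5.74 and 7.67. As the hairpins are identical, reads of the copies cannot be told apart, and the counts per copy are uncertain. MIR3648-1 had 1.11 to 2.1 reads per read of MIR3648-2 in small spheroids and 1.53 to 2.5 in capsules. The counts are of gene rows in a long-RNA library, so they do not measure the mature miR-3648.

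Read per kilobase of gene, which allows levels of different members to be compared, the order also changed between formats. In capsules RN7SK led with 225 ± 122 CPM per kilobase (SD, n = 3), followed by MIR3648-1 and SNORD3A at 104 ± 131 and 104 ± 139, RPPH1 at 71.3 ± 64.6, MIR3648-2 at 66.0 ± 87.3, RMRP at 65.1 ± 45.6 and SCARNA2 at 27.0 ± 9.1. In monolayer SNORD3A led with 11.9 ± 2.8 CPM per kilobase, and the other members stood at 0.205 to 1.92. The large SDs, as high as the means for several members, leave the capsule order below RN7SK within the spread of the libraries.

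All 7 members were higher in every small spheroid library than in every monolayer library, as were 39.7% of the 15175 genes tested. All 7 were also higher without overlap in capsules than in monolayer, against 34.5% of genes, and in capsules than in large spheroids, against 31.7%. These counts describe how the members were chosen and support nothing further. In large spheroids 3 members without overlap were higher than in monolayer (RN7SK, RPPH1 and SCARNA2, beside 33.1% of genes) and 1, SNORD3A, was lower (beside 34%). In large against small spheroids 5 members were lower without overlap, beside 36.8% of genes, and in capsules against small spheroids SCARNA2 alone of the 7 was higher without overlap, beside 29.8%. Without replicate 3 of small spheroids this last count was 5, beside 31.9%. The median log2 fold change of the members against monolayer was 5.30 in small spheroids, 1.61 in large spheroids and 7.16 in capsules, where all genes tested had medians of 0.0087, -0.0020 and 0.04. The 6 libraries of small spheroids and capsules lay above all 6 of monolayer and large spheroids for 5 members, beside 13.7% of genes. RMRP and SCARNA2 overlapped. That division is also the division of the titles with and without UP, so what the letters mark and the culture format cannot be told apart.

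The members' fold changes also depended on how GC content and length were treated. Members are short, and their GC content ran from 49.8% for SNORD3A to 65.5% for SCARNA2 and 83.9% for the MIR3648 hairpins. With a smooth offset for GC content and length in each library, the log2 fold change in small spheroids and in capsules came to 4.45 and 6.32 for RN7SK, 4.63 and 6.39 for RMRP, 3.64 and 4.08 for RPPH1 and 2.32 and 2.51 for SNORD3A. For SCARNA2 it came to 0.79 and 3.55, for MIR3648-1 to 2.66 and 4.72 and for MIR3648-2 to 3 and 5.01. Each value was smaller than without the offset and above 0, and the MIR3648 copies lost the most.

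Replicate 3 stood apart in both small spheroids and capsules. In small spheroids 5 members had replicate 3 over 2 times each other library, beside 0.896% of genes, and in capsules 6, beside 0.639%. In monolayer and large spheroids none of the 7 did, beside 0.343% and 0.336%. These libraries were chosen for showing this, so the counts are a description. Over the mean of replicates 1 and 2, small spheroid replicate 3 held 18.6 times the RMRP, 12.7 times the RPPH1, 11.1 times the SNORD3A, 10.3 times the RN7SK and 3.74 times the SCARNA2. For MIR3648-1 and MIR3648-2 the ratios were 1.06 and 0.8. In capsules the order was another: SNORD3A had 10.8, MIR3648-2 10.4, MIR3648-1 8.82, RPPH1 4.29, RMRP 3.03, RN7SK 2.37 and SCARNA2 1.68 times. The range between the small spheroid libraries of RMRP, 5.01 on the log2(CPM + 0.1) scale, was wider than that of 99.99% of genes, whose median range was 0.211.

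**Figure D2:**
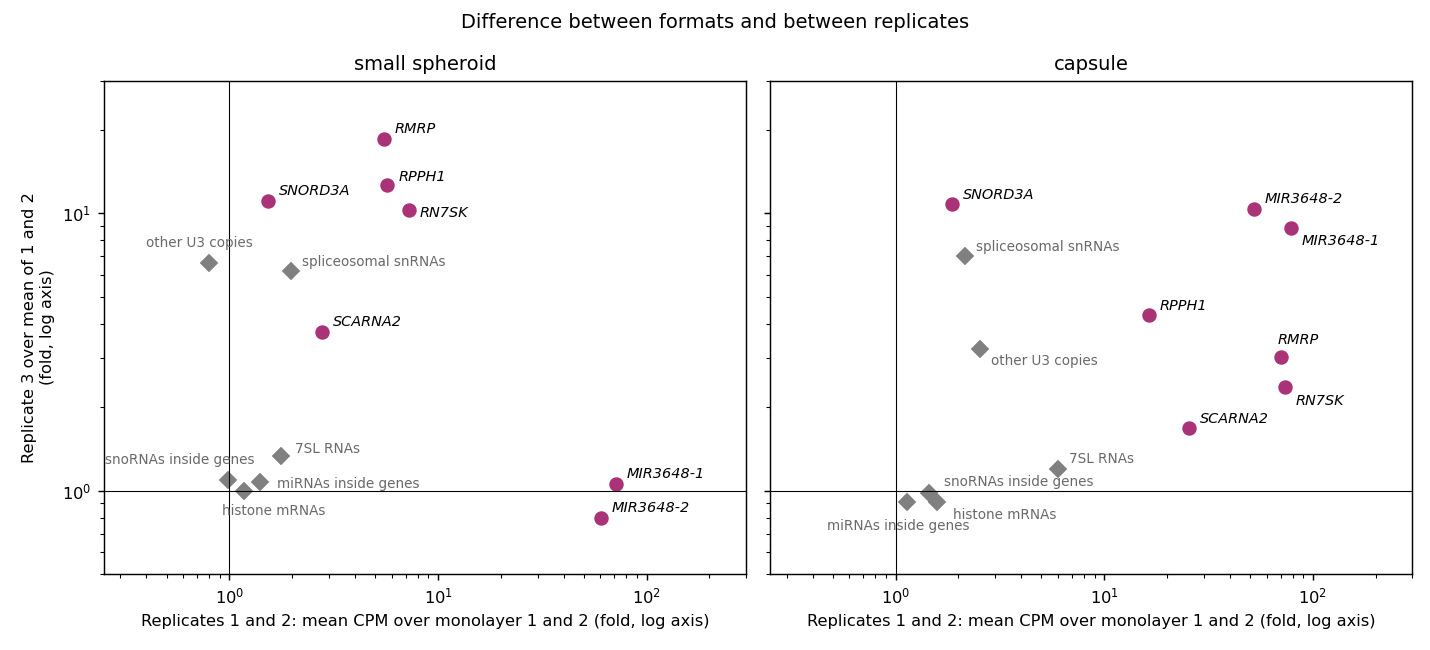
Fold of replicates 1 and 2 over monolayer replicates 1 and 2 (x, log axis) against replicate 3 over the mean of replicates 1 and 2 (y, log axis), in small spheroids and capsules, for the 7 members (circles) and the summed levels of 6 other RNA classes (diamonds); 5S rows are left out because those monolayer libraries held 1 count. SNORD3A has a low x, 1.53 and 1.86, and a high y, 11.1 and 10.8, in both panels, while MIR3648-1 moves from a y of 1.06 to 8.82 and RN7SK from an x of 7.26 to 73.4.

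Replicates 1 and 2 were also read alone, with the third left out of every format. Small spheroids over monolayer gave 7.26-fold for RN7SK, 5.72-fold for RPPH1, 5.52-fold for RMRP, 2.78-fold for SCARNA2 and 1.53-fold for SNORD3A. Capsules over monolayer gave 73.4-fold for RN7SK, 70.4-fold for RMRP, 25.6-fold for SCARNA2, 16.4-fold for RPPH1 and 1.86-fold for SNORD3A. MIR3648-1 gave 71.3-fold and 78.7-fold, and MIR3648-2 gave 60.6-fold and 52-fold, on few monolayer reads. Capsules over small spheroids gave 1.1 for the first copy and 0.858 for the second. RN7SK and RMRP in capsules were thus far above monolayer in the libraries that did not stand apart, and SNORD3A was not.

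Whole-table similarity did not follow the members. By chi-square per gene over 11701 genes, the closest libraries in small spheroids were replicates 1 and 3 (2.8) and in capsules replicates 2 and 3 (2.99). Capsule replicate 1 was the distant one, at 39.1 from replicate 2 and 34.6 from replicate 3. For RN7SK, RMRP, RPPH1 and SNORD3A capsule replicates 1 and 2 were close and replicate 3 was apart.

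Other noncoding RNAs in the table were read beside the members. They were 233 rows, grouped by name and by whether they lie inside another gene, a division made after the values were seen. The 15 spliceosomal small nuclear RNA rows summed to 2.59 ± 0.92 CPM in monolayer, 16.4 ± 18.0 in small spheroids, 2.55 ± 0.48 in large spheroids and 19.6 ± 22.7 in capsules. Replicate 3 held 6.18 and 6.99 times the mean of the other libraries in small spheroids and capsules. RNU1-2, a copy of U1 that marks the start of introns, stood at 0.933, 1.44 and 12 CPM in small spheroids and at 1.2, 0.55 and 14.8 CPM in capsules. The 8 rows of 5S ribosomal RNA share 1 sequence of 119 bases. They summed to 9.32 ± 12 CPM in small spheroids and 14.3 ± 19.1 CPM in capsules, with replicate 3 at 9.71 and 11 times the others, while monolayer had 1 count in all. Only 3 of the 8 rows passed the filter on low counts, through the formats in which they were high, so no test is given for them. Of these, RNA5S17 stood at 0.467, 0.454 and 6.12 CPM in small spheroids and at 0.569, 0.894 and 9.43 CPM in capsules, with 0 counts in all monolayer and large spheroid libraries. The 4 other U3 rows had replicate 3 at 6.63 times the others in small spheroids and 3.24 times in capsules.

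The more abundant short RNA rows moved less between replicates. RN7SL1 and RN7SL2, which encode the RNA of the signal recognition particle and are 98.3% identical, summed to 460 ± 51 CPM in monolayer, 842 ± 149 in small spheroids, 550 ± 62 in large spheroids and 2760 ± 299 in capsules. RN7SL1 rose by 0.87 ± 0.14 (log2, SE) in small spheroids (edgeR quasi-likelihood test, adjusted p = 2.54e-05) and by 2.74 ± 0.15 in capsules (adjusted p = 1.7e-10), and RN7SL2 rose by 0.87 ± 0.12 (adjusted p = 5.54e-06) and 2.46 ± 0.13 (adjusted p = 1.08e-10). With the offset for GC content and length these genes were lower in small spheroids, at -0.32 and -0.30, and higher in capsules, at 1.68 and 1.42. Replicate 3 held 1.33 and 1.2 times the summed 7SL of the other libraries. MIR3654, the third most abundant of these rows and one inside another gene, stood at 275 to 443 CPM in all 12 libraries except capsule replicates 2 and 3 (242 and 257 CPM). Its count may include reads of the gene around it.

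**Figure D3:**
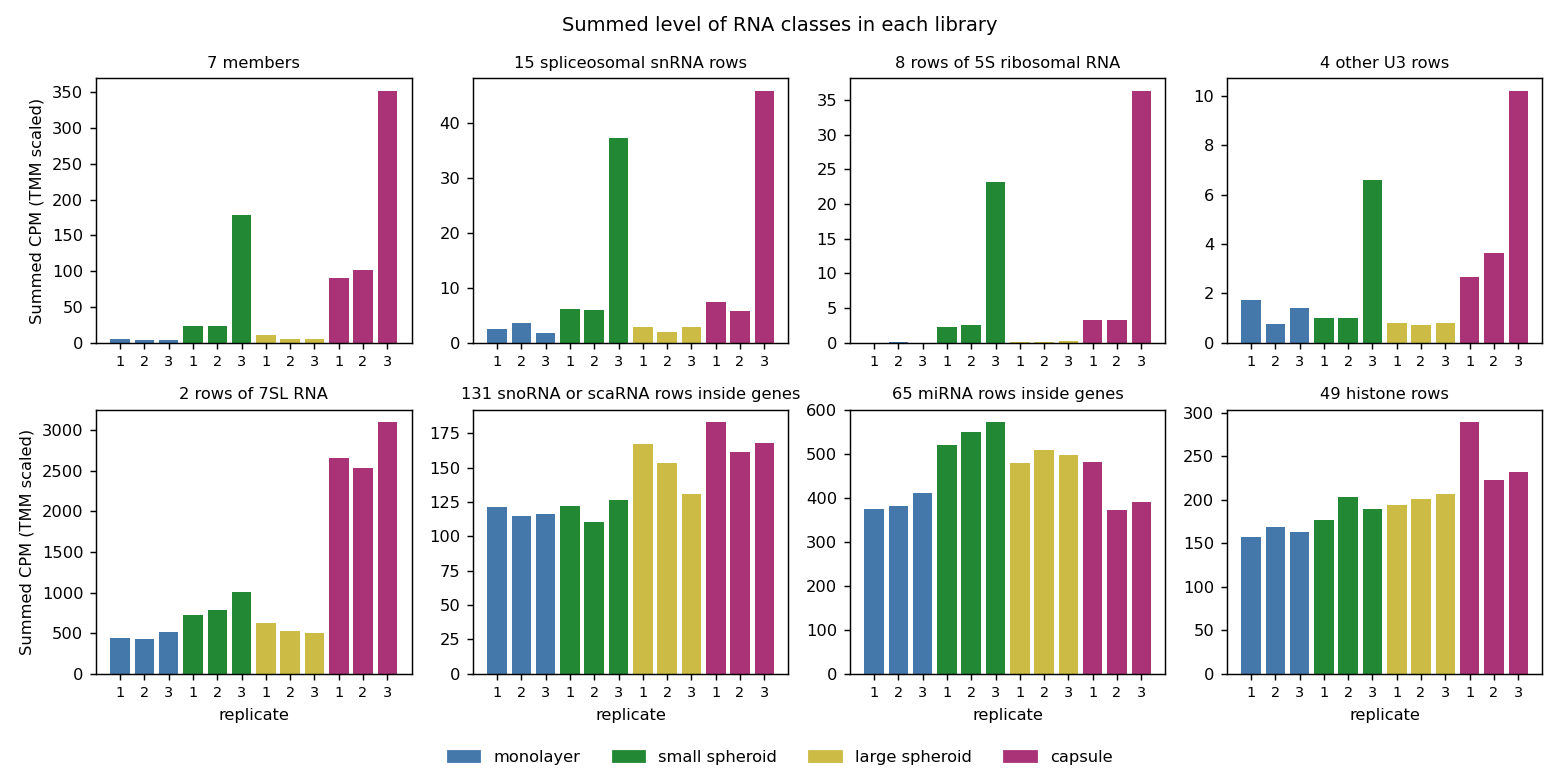
Summed CPM (linear axis from 0, TMM scaled) of the members and of 7 other RNA classes in each of the 12 libraries, coloured by format. Summed members, spliceosomal RNAs, 5S and other U3 rows peak in replicate 3 of small spheroids and capsules. Summed snoRNA rows inside genes, which may include reads of those genes, and histone rows have replicate 3 at 0.908 to 1.09 times the mean of the other libraries there.

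The 131 small nucleolar or Cajal body RNA rows inside other genes summed to 118 ± 3 CPM in monolayer, 119 ± 8 in small spheroids, 150 ± 18 in large spheroids and 170 ± 11 in capsules. Their replicate 3 held 1.09 and 0.978 times the others in small spheroids and capsules. These rows may include reads of the genes around them, so their sums need not measure the small RNAs themselves. The 49 rows of replication-dependent histone genes, whose mRNAs also end without a poly(A) tail, gave ratios of 0.994 and 0.908. These sums were level, but single rows were not all so. Replicate 3 was over 2 times each other library in 11 of the 131 rows (8.4%) in small spheroids and 6 (4.58%) in capsules, and in 11 (22.4%) and 2 (4.08%) of the 49 histone rows. The same shares over all genes tested were 0.896% and 0.639%. The class shares are not like these, since they include rows that failed the filter on low counts. Of the 131 rows 107 passed it, and of the 49 histone rows 38. At a few reads, a 2-fold excess can come from counting error alone. Other low rows that lie outside other genes were read by class as well. The 7 miRNA rows not inside a gene, summing to 6.26 ± 0.19 and 5.68 ± 0.45 CPM, gave ratios of 1 and 0.915, and the 1 such small nucleolar RNA row gave 0.381 and 1.27. The miRNA sum rests mostly on 1 row, with a mean of 3.84 CPM over the 12 libraries. The small nucleolar RNA row held 4 to 15 reads in the small spheroid libraries. The part that RNA recovery or capture of short RNA had in the members' differences was not tested.

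The genes most like RN7SK and RMRP over the 12 libraries were, in the main, other short RNAs. Likeness was the root mean square difference of log2 CPM (prior count of 2) after each gene was centred over the libraries, a smaller value being more alike. For RN7SK the nearest 5 rows were RMRP (0.66), RPPH1 (1.01), a row with no symbol (1.27), SCARNA2 (1.29) and the 5S row RNA5S3 (1.29), where the median over all genes was 2.78. For RMRP they were RN7SK (0.66), RPPH1 (0.925), RNA5S3 (1.17), the same row with no symbol (1.18) and RNA5S17 (1.21). The MIR3648 copies were 0.603 apart, and SNORD3A was nearest to RPPH1 among the members (1.06) and further from RN7SK (1.83). These distances share libraries and low counts and have no test.

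Genes linked to small RNA particles or to RNA polymerases I and III were read from 6 lists, 102 genes in all. They were tested in the fit over all genes. The lists are not all of partners of the members, and the box H/ACA proteins were not matched to any member. A gene rose or fell where edgeR's quasi-likelihood test gave an adjusted p below 0.05. Against monolayer, 72.3% of all genes were called in small spheroids (37% higher and 35.3% lower), 57.1% in large spheroids (28.7% and 28.4%) and 66% in capsules (34.5% and 31.5%), so a list with a majority of called genes is near the background.

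For the 7SK particle and P-TEFb list, 16 genes, 3 rose, 9 fell and 4 did not pass in small spheroids, with a median log2 fold change of -0.29. In large spheroids 1 rose and 7 fell (median -0.20), and in capsules 7 rose and 5 fell (median -0.07). An offset for GC content and length in each library gave 6 and 6 in small spheroids and 3 and 6 in large spheroids, and without replicate 3 of small spheroids and capsules 4 rose in capsules. CDK9, the P-TEFb kinase, rose in small spheroids from 47.7 ± 1.1 to 72.2 ± 5.8 CPM (log2 0.60 ± 0.09, adjusted p = 1.84e-05), while its cyclin CCNT1 fell from 93.4 ± 2.6 to 41.1 ± 3.5 CPM (-1.19 ± 0.11, adjusted p = 5.38e-08). AFF4, the scaffold of the super elongation complex that takes up P-TEFb, had the lowest values, with log2 fold changes of -1.70 ± 0.10 in small spheroids (adjusted p = 2.06e-10), -0.72 ± 0.09 in large spheroids and -1.62 ± 0.10 in capsules. The offset brought AFF4 to -0.93, CCNT1 to -0.46 and CDK9 to 0.17 (adjusted p = 0.0436) in small spheroids. HNRNPA2B1, which binds 7SK after its release from P-TEFb, rose in capsules from 983 ± 45 to 1560 ± 38 CPM and fell in large spheroids to 632 ± 16 CPM. In capsules its log2 fold change was 0.66, and 1.15 with the offset.

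The RNase P and RNase MRP list, 11 protein subunits, had 5 genes higher and 4 lower in small spheroids, 3 and 3 in large spheroids, and 6 and 0 in capsules, where its median was 0.50. RPP25, which binds the RNA together with POP7, rose in every format, from 3.68 ± 0.66 CPM in monolayer to 20.4 ± 0.7 in small spheroids (log2 2.46 ± 0.15, adjusted p = 3.62e-10), 16.2 ± 1.6 in large spheroids (2.12 ± 0.15) and 15 ± 2.2 in capsules (2.01 ± 0.15). POP7 rose from 22.4 ± 2.7 CPM to 62.7 ± 4.1 in small spheroids, 36.8 ± 3.3 in large spheroids and 87.1 ± 6.8 in capsules (adjusted p = 1.29e-10). POP1, the largest subunit, fell from 18.3 ± 2.3 CPM to 6.40 ± 1.10 in small spheroids and 7.06 ± 1.25 in large spheroids, and stood at 20.9 ± 4.9 CPM in capsules (adjusted p = 0.29). RPP40 fell by 1.48 ± 0.24 on the log2 scale in small spheroids. The offset for GC content and length brought RPP25 to 1.51 and POP7 to 0.54 in small spheroids, and POP7 to 1.20 in capsules. Subunits of the same particles therefore moved in opposite directions in the spheroid formats, and within-format libraries of RPP25 and POP7 did not overlap monolayer.

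The box C/D and U3 list, 16 genes, had 9 higher and 5 lower in small spheroids, 9 and 1 in large spheroids and 10 and 3 in capsules, with medians of 0.42, 0.25 and 0.36. The offset gave 6 and 2 in small spheroids, with a median of 0.067. IMP4, a U3 particle protein, rose by 0.94 ± 0.07, 0.51 ± 0.07 and 1.01 ± 0.07 in the 3 formats, the first being 0.60 with the offset. NOP56, a core box C/D protein, had its largest rise in capsules, from 130 ± 4 to 296 ± 46 CPM (adjusted p = 7.03e-09), and the assembly factor NUFIP1 fell there by 0.71 ± 0.13 on the log2 scale, or by 0.35 with the offset. SNORD3A stood lower in large spheroids than in monolayer, while 9 of the 16 genes rose in that format. The part of these genes in the SNORD3A level was not tested. Of the Cajal body and box H/ACA list, 12 genes, 3 rose and 6 fell in small spheroids, 3 and 2 in large spheroids and 6 and 2 in capsules, and the offset gave 6 and 2 in large spheroids. DKC1, the pseudouridine synthase, rose from 93.3 ± 4.9 to 149 ± 3 CPM in large spheroids and to 162 ± 34 CPM in capsules, and COIL, the coilin that marks Cajal bodies, fell from 17.9 ± 0.3 to 9.83 ± 0.95 CPM in small spheroids (log2 -0.86, adjusted p = 2.76e-05; with the offset -0.42).

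**Figure D4:**
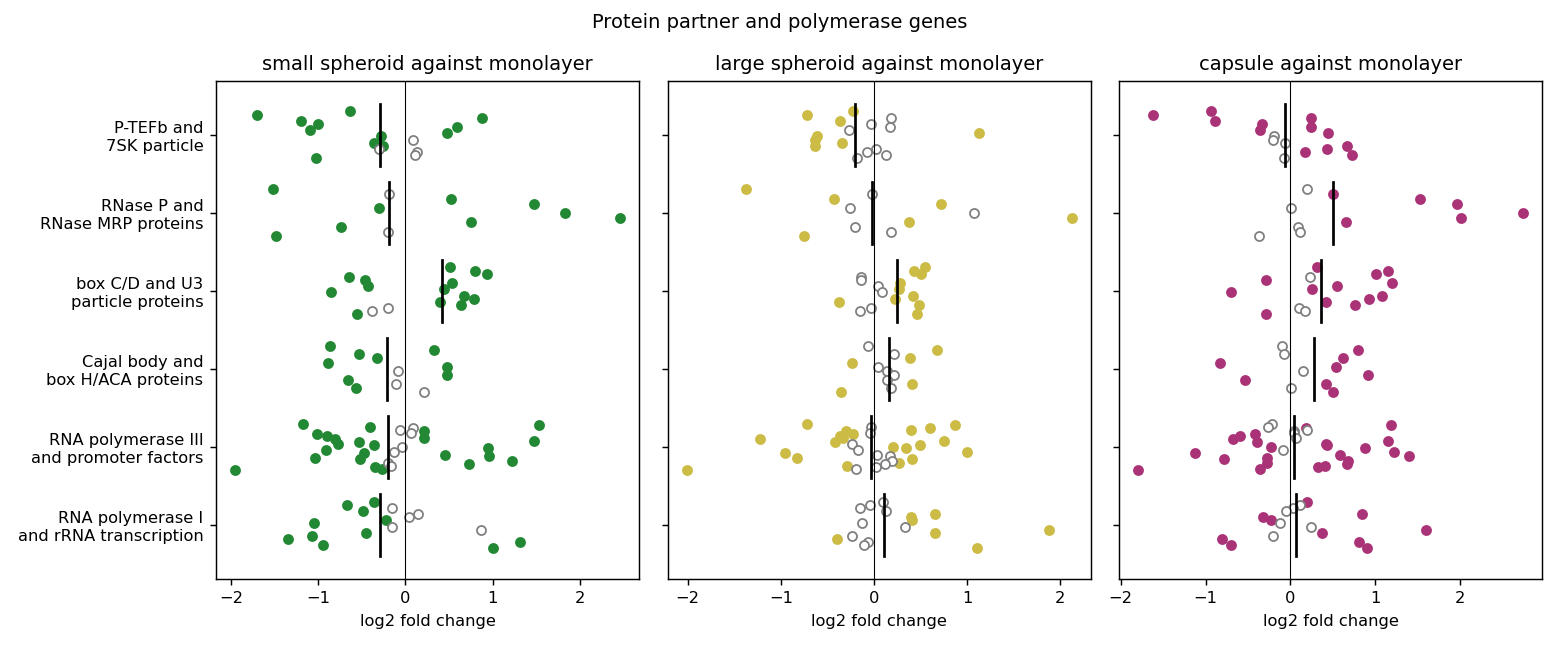
Log2 fold change against monolayer (x) of the genes of the 6 lists (rows) in small spheroids, large spheroids and capsules. Filled points have an adjusted p below 0.05 in edgeR's test, open points do not, and black lines are list medians. Genes of each list lie on both sides of 0 in each panel, and list medians lie between -0.293 and 0.502.

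RNA polymerase III and its promoter factors, 31 genes, had 9 higher and 15 lower in small spheroids, 10 and 11 in large spheroids and 13 and 11 in capsules, with medians of -0.20, -0.04 and 0.04. POLR3K, a subunit of the enzyme, rose in capsules from 27.0 ± 0.1 to 70.5 ± 3.7 CPM (log2 1.39 ± 0.07, adjusted p = 1.78e-10). BRF1, which serves 5S and tRNA genes but not the upstream promoters of RN7SK, RMRP and RPPH1, rose by 1.53 ± 0.10 in small spheroids, 0.87 ± 0.10 in large spheroids and 1.18 ± 0.10 in capsules. MAF1, the repressor of the polymerase, rose from 91.8 ± 3.2 CPM in monolayer to 255 ± 17 in small spheroids (adjusted p = 2.29e-09). With the offset for GC content and length BRF1 was at 0.43 in small spheroids and 0.58 in capsules, and MAF1 at 0.46 in small spheroids. ZNF143, an activator of upstream promoters, fell from 85.0 ± 5.7 CPM to 22.0 ± 3.9 in small spheroids, 21.1 ± 1.2 in large spheroids and 24.5 ± 9.9 in capsules. SNAPC1, a subunit of SNAPc, fell by 0.78 ± 0.11 on the log2 scale in capsules (adjusted p = 9.48e-06), or by 0.45 with the offset. In large spheroids RN7SK stood at 1.5 to 4 CPM and RPPH1 at 1.26 to 1.56 CPM, both above every monolayer library. The part of ZNF143 in the members' levels was not tested.

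RNA polymerase I and its factors, 16 genes, had 2 higher and 9 lower in small spheroids, 6 and 1 in large spheroids and 6 and 4 in capsules. The offset gave 4 and 7 in small spheroids and 7 and 2 in large spheroids. UBTF, which binds ribosomal RNA promoters, rose from 49.2 ± 2.7 CPM to 99.6 ± 3.9, 106 ± 4 and 92.0 ± 12.1 CPM. Of the promoter selectivity subunits, TAF1C rose by 1.31 ± 0.12 in small spheroids and TAF1B fell by 1.34 ± 0.12 there, values that the offset brought to 0.48 and -0.71. The MIR3648 copies had 21 and 12 reads in all in large spheroids and 197 and 127 in small spheroids. The part of UBTF in these levels was not tested.

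Genes next to the members are given with their own differences from monolayer in small spheroids and capsules. The members were chosen with their large differences in view, so almost any gene would differ less. The part of the loci in the members' differences was therefore not tested. Protein-coding genes within 10000 bases were found for RN7SK, RMRP, RPPH1 and SCARNA2 only. GSTA4 lies 335 bases from RN7SK and had log2 fold changes of -0.47 ± 0.13 in small spheroids (edgeR, adjusted p = 0.00291) and -0.45 ± 0.13 in capsules (adjusted p = 0.00448), and with the offset for GC content and length 0.19 and -0.30 (adjusted p = 0.251 and 0.0626). CILK1, 5351 bases away on the other side, fell by 1.34 ± 0.09 and 0.98 ± 0.09, which the offset brought to -0.67 and -0.54. CCDC107, 272 bases from RMRP, was at 0.37 ± 0.16 in small spheroids (adjusted p = 0.0509; with the offset -0.37, adjusted p = 0.0544) and rose by 0.54 ± 0.16 in capsules (adjusted p = 0.0075), though an offset for GC content and length left -0.02. PARP2, 223 bases from RPPH1, fell by 0.39 ± 0.07 in small spheroids (adjusted p = 9.27e-05), or by 0.20 with the offset, and was at 0.13 ± 0.07 in capsules (adjusted p = 0.122). CCNB1IP1, 9791 bases from RPPH1, fell by 1.03 ± 0.10 in capsules, and TMEM167B, 3258 bases from SCARNA2, fell by 1.13 ± 0.10 there. The strand setting of the counting was not given in the sources used here, so reads of overlapping or antisense transcripts cannot be told apart.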

How the data were processed

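TRIzol was used for extraction and a TruSeq protocol for the libraries, per the labels. The authors deposited the data as a single table of read counts, whole numbers for 16020 Entrez genes in 12 libraries. Counting used featureCounts on hg38, per the submitters' processing notes, and alignment subread, per the file headers, which name only first-read files. Versions, annotation and strand setting were not given in the sources used here. Rows without a symbol numbered 164 (0.0705% of counts) and stayed in the fit. Capsule replicate 1 has a column whose name writes the format out; it was matched by its format and number.

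Counts were fitted in R 4.3.3 with edgeR 4.0.16, in 1 quasi-likelihood fit of all 12 libraries with TMM scaling, after filterByExpr (minimum count of 10) left 15175 genes. Benjamini-Hochberg adjustment was made over these within each of 6 comparisons, at 0.05. The SE of a log2 fold change was its size divided by the square root of the test's F statistic, with the spread shared over the formats. Where reads are few the fold change depends on the prior count, so this SE is approximate there. The fit was tested on simulated data. All 12 pairs of replicates differed by more than sampling noise. Alternatives were library totals, DESeq2 1.42.0, no filter, a replicate block, an offset for GC content and length (97.4% of rows had both), and each library left out. Leaving out replicate 3 of small spheroids and of capsules together, or of either format for ratios of summed counts, was added after seeing the data. RefSeq positions matched 15851 rows (98.9%).

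The members, the lists and the rules were chosen with earlier results of these data known. Named are the 7 members, the 2 called genes of smallest adjusted p per direction of each list against monolayer (not all are printed), genes within 10000 bases, the 5 rows most like RN7SK and RMRP, and the 3 most abundant other short RNA rows. RNU1-2 and the genes of the closing section were chosen after their values were seen. Intervals and limits from 0 counts (3 counts) cover counting error only, since reads without molecular identifiers are not independent molecules. A listed gene and a sequence are not reported here.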

Additional observations from a re-analysis of the deposited data

How the results depend on the processing

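Low counts limit the members most: RMRP and the MIR3648 copies had 2 to 6 reads over the monolayer libraries, and large spheroids held 12 to 21 reads of the MIR3648 copies and 16 of RMRP. The number of members higher without overlap in large spheroids than in monolayer was 5 without large spheroid replicate 3, against 3 with it (3 to 5 over the libraries left out), beside 37.4% and 33.1% of genes (31.5% to 37.4%). In capsules against small spheroids it was 1 with all libraries (29.8% of genes), 2 with library totals in place of TMM (36%), 1 to 5 when single libraries were left out (29% to 33.5%), and 5 without replicate 3 of both formats (35%). Leaving out both brought the capsule minus small spheroid log2 fold change of MIR3648-2 from 1.93 to -0.23. Without large spheroid replicate 1 the large spheroid value of MIR3648-1 was -0.16, against 2.53 with it. The offset for GC content and length reversed these genes in small spheroids: HNRNPA2B1 (0.51), ZNHIT6 (0.34), RUVBL2 (-0.40), NHP2 (-0.24), GEMIN2 (0.061), SHQ1 (0.052), SNAPC1 (0.27), RRN3 (0.11), GSTA4 (0.19), RN7SL1 (-0.32) and RN7SL2 (-0.30). In capsules it reversed ZNHIT6 (0.25), FBL (-0.11), RUVBL2 (-0.079), NHP2 (-0.0985), POU2F1 (0.32) and CCDC107 (-0.0173). CCDC107, not called in small spheroids, also changed sign there (-0.37). It brought MIR3648-2 to 3 in small spheroids and 5.01 in capsules. The cause was not tested. With library totals the median over all genes of the log2 fold change moved to -0.15 in small spheroids against monolayer, and the share of calls that were higher moved from 51.9% to 62.9% in capsules against small spheroids. Over the other single-gene values, each under each alternative, a call was lost 75 times and gained 22 times.

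The replicate numbers were not taken to pair the libraries: over all genes, correlations of deviations between same-numbered libraries ran from -0.215 to 0.217, and 4 of 12 libraries correlated best with their own number. Some genes did go with the number in 2 formats, among them MYH6, low in replicate 3 of monolayer and of large spheroids, and RN7SK, RMRP, RPPH1 and SNORD3A, high in replicate 3 of small spheroids and of capsules. With the replicate number as a block, 10833, 8399 and 9847 genes were called against monolayer in small spheroids, large spheroids and capsules, against 10968, 8669 and 10013 without it, and 9873, 7576 and 9296 among the other formats, against 10064, 7893 and 9511. The block moved SNORD3A from 2.88 to 2.12 in small spheroids and from 3.14 to 2.36 in capsules.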

Other observations

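Across all genes tested, 136 had small spheroid replicate 3 over 2 times each other small spheroid library and 97 had capsule replicate 3 over 2 times its own others. The genes on both lists numbered 16, which is 11.8% of the first and 16.5% of the second. Of these, 10 were short noncoding RNA rows: the members RN7SK, RMRP, RPPH1 and SNORD3A, and RNU1-2, RNU4-2, RNA5S3, RNA5S6, RNA5S17 and SNORD3B-1. The whole table of 16020 rows held 233 short noncoding RNA rows besides the 7 members. Not all of the 233 passed the filter on low counts, while the 16 genes were drawn from those that did, so the 2 shares are not alike. RNU4-2, a copy of the spliceosomal U4 RNA, stood at 0.8, 0.379 and 7.19 CPM in small spheroids and at 0.19, 0 and 5.84 CPM in capsules. The other 6 were the histone gene H2BC6 and ACTA1, ACTC1, SCN9A, CAVIN2 and SGCD. Several of these lay near the floor. SCN9A stood at 0.0765 and 0.0704 CPM in replicate 3 of small spheroids and capsules, the value of 1 count there. In the other libraries of these formats it stood at 0. ACTC1, CAVIN2 and SGCD stood at 0.141 to 0.612 CPM in replicate 3 of both formats. ACTA1, the actin of skeletal muscle, stood at 0.733, 0.681 and 3.37 CPM in small spheroids and at 0.442, 0.275 and 1.27 CPM in capsules, with 3.98, 3.62 and 0.0918 CPM in monolayer. ACTC1, the cardiac actin, was at 0.612 and 0.141 CPM in these libraries and at 12.1, 11.1 and 0 CPM in monolayer. The genes were picked for their values, so the list is a description.

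The ratio of RN7SK reads to RN7SL1 reads, both from RNA polymerase III genes, was 0.000648 to 0.00372 in monolayer, 0.00599 to 0.0131 in large spheroids, 0.0151 to 0.11 in small spheroids and 0.0405 to 0.0792 in capsules. Small spheroid replicate 3 had the highest ratio of the 12 libraries, above every capsule library.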
